A study of Mus musculus with 2 samples.

Results

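Mir3057 to Mir3113 is a run of mouse microRNA genes that were numbered late, after the widely studied families had been named. Its members were taken as the rows of the deposited tables whose identifier carries a GENCODE symbol in the run from Mir3057 up to and including Mir3113, leaving out Mir3074-1 and Mir3099. This gave 48 of the 1973 hairpin genes in the tables. The rule used names only and no measured value. Small RNA was sequenced from forebrain of newborn mice of strain B6NCrl at postnatal day 0, with no allele or treatment named in the labels. The 2 samples, which form 1 group, are forebrains of separate pups, pup 1 and pup 3. The sex of the pups was not collected, and both samples list the same donor record. With 1 group, the design implies a description of these microRNAs and of how far the pups differ, and no comparison between conditions.

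A microRNA gene is transcribed as a longer RNA from which a hairpin is cut, and the arms of that hairpin give mature strands that guide Argonaute proteins to messenger RNAs. Bases 2 to 8 of a mature strand, its seed, are the main part that pairs with targets. MicroRNA numbers are given in the order of registration. Highly expressed and conserved families therefore tend to carry low numbers, and many late ones were found by deep sequencing, inside introns and exons of other genes. A mirtron is a hairpin that forms a whole short intron and is released by splicing instead of by Drosha.

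The sequences below are those on which the results turn, taken from RefSeq (GRCm38.p6), with the seed in capitals. Of the 48 members, 45 had a mature sequence there, 88 sequences in all, and Mir3078, Mir3079 and Mir3106 are given by name only. The first set shows both arms of the 2 most abundant members, Mir3071 on the minus strand of chromosome 12 and Mir3059 on chromosome 10. The name of the Mir3071 row is uncertain, as described below. Counts are per hairpin, so no value below belongs to a single arm.

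miR-3071-5p: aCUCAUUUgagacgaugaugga
miR-3071-3p: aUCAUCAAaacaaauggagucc
miR-3059-5p: uUUCCUCUcugccccauagggu
miR-3059-3p: cCUCUAGGgaagagaagguugg

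Mir3102 on chromosome 7 is shown because RefSeq gives it 4 mature products, which lie in pairs end to end along each arm of the hairpin. Its outermost 5p product begins at the first base of the hairpin, and its outermost 3p product ends 1 base before the last. The seed of miR-3102-5p is also that of miR-702-5p.

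miR-3102-5p: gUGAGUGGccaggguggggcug
miR-3102-5p.2-5p: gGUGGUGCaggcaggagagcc
miR-3102-3p.2-3p: cUCUACUCccugccccagcca
miR-3102-3p: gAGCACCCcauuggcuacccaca

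Mir3064 and Mir3085 are shown because they share a seed although they lie on different chromosomes (11 and 19). Their mature strands differ at 8 of the first 21 bases, all outside the seed. The neighbours Mir3070a and Mir3070b, 561 bases apart on chromosome 12, share the seeds of both arms. Their 3p arms differ at 2 of 22 bases and their hairpins at 5 of 89.

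miR-3064-5p: uCUGGCUGuuguggugugcaaa
miR-3085-3p: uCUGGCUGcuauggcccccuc
miR-3070-3p of Mir3070a: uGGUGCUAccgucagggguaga
miR-3070-2-3p of Mir3070b: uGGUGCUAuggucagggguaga

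The last set holds the other abundant members, and Mir3093, which lies beside the neural microRNA gene Mir9-1.

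miR-3072-5p: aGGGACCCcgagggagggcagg
miR-3072-3p: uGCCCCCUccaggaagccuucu
miR-3061-5p: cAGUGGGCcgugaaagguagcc
miR-3061-3p: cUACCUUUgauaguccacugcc
miR-3080-5p: uGAAGCGCcuguucuuggau
miR-3080-3p: uCCUCGGGcaaagcgcuugaca
miR-3093-5p: cGCACCCCgcggagcucacacu
miR-3093-3p: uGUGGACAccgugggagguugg

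Few seeds were shared. The 88 mature sequences held 85 distinct seeds, and 16 of them in 14 members had a seed in common with another mouse hairpin of the RefSeq table. Among the hairpins outside the set that share one, Mir702 had the most reads, with 798 in pup 1 and 550 in pup 3. The next, Mir7047, which shares a seed with Mir3103, had 23 and 17 reads.

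The libraries held 9037087 reads assigned to hairpin genes in pup 1 and 7678662 in pup 3. Levels are given as counts and as CPM, the count per 1000000 assigned reads. A microRNA read covers a whole mature strand, so levels were not divided by the hairpin length, which ran from 60 to 105 bases among the members. Markers of the labelled tissue were present. Of 10 forebrain and neuronal markers with a row, 9 were detected, and the 10 took 3.35% and 4.61% of assigned reads in pup 1 and pup 3. Most of these reads came from Mir137, with 220009 and 257967. Mir9-3 had 3449 and 5252 reads, while Mir9-2 had 12 and 12, and Mir124a-2, not detected, had 20 and 6. Of 4 muscle markers 3 were at 0 in both pups and Mir206 was detected, with 857 and 342 reads, so that the list took 0.00948% and 0.00445%. Those at 0 were Mir1a-1, Mir133a-1 and Mir133a-2. Reads that map to several places are in no gene's count, so a 0 for a hairpin with near copies does not show absence. The liver marker Mir122 took 0.0054% and 0.0075%. Markers of other cells were also read, with 0.0607% and 0.0862% for 5 blood microRNAs, 0.0652% and 0.0676% for 3 of oligodendrocytes, and 0.0192% and 0.0147% for 5 of the Hox clusters, of which 1 was at 0. All 5 blood and 3 oligodendrocyte markers were detected.

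Nearly every member was read in these forebrains, but at low levels. Detection was set at a minimum of 10 counts in each pup, which 27 of 48 members reached. Another 20 had fewer reads, and Mir3090 alone had none in either pup. Together the members took 0.133% ± 0.0259 of the assigned reads (SD, n = 2), with 13702 reads in pup 1 (0.152%, 95% Wilson interval 0.149 to 0.154) and 8827 in pup 3 (0.115%, 0.113 to 0.117). These intervals cover counting error only. Levels lay between 100 and 1000 CPM for 2 members, between 10 and 100 CPM for 7, between 1 and 10 CPM for 19, and below 1 CPM but above 0 for 19.

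**Figure D1:**
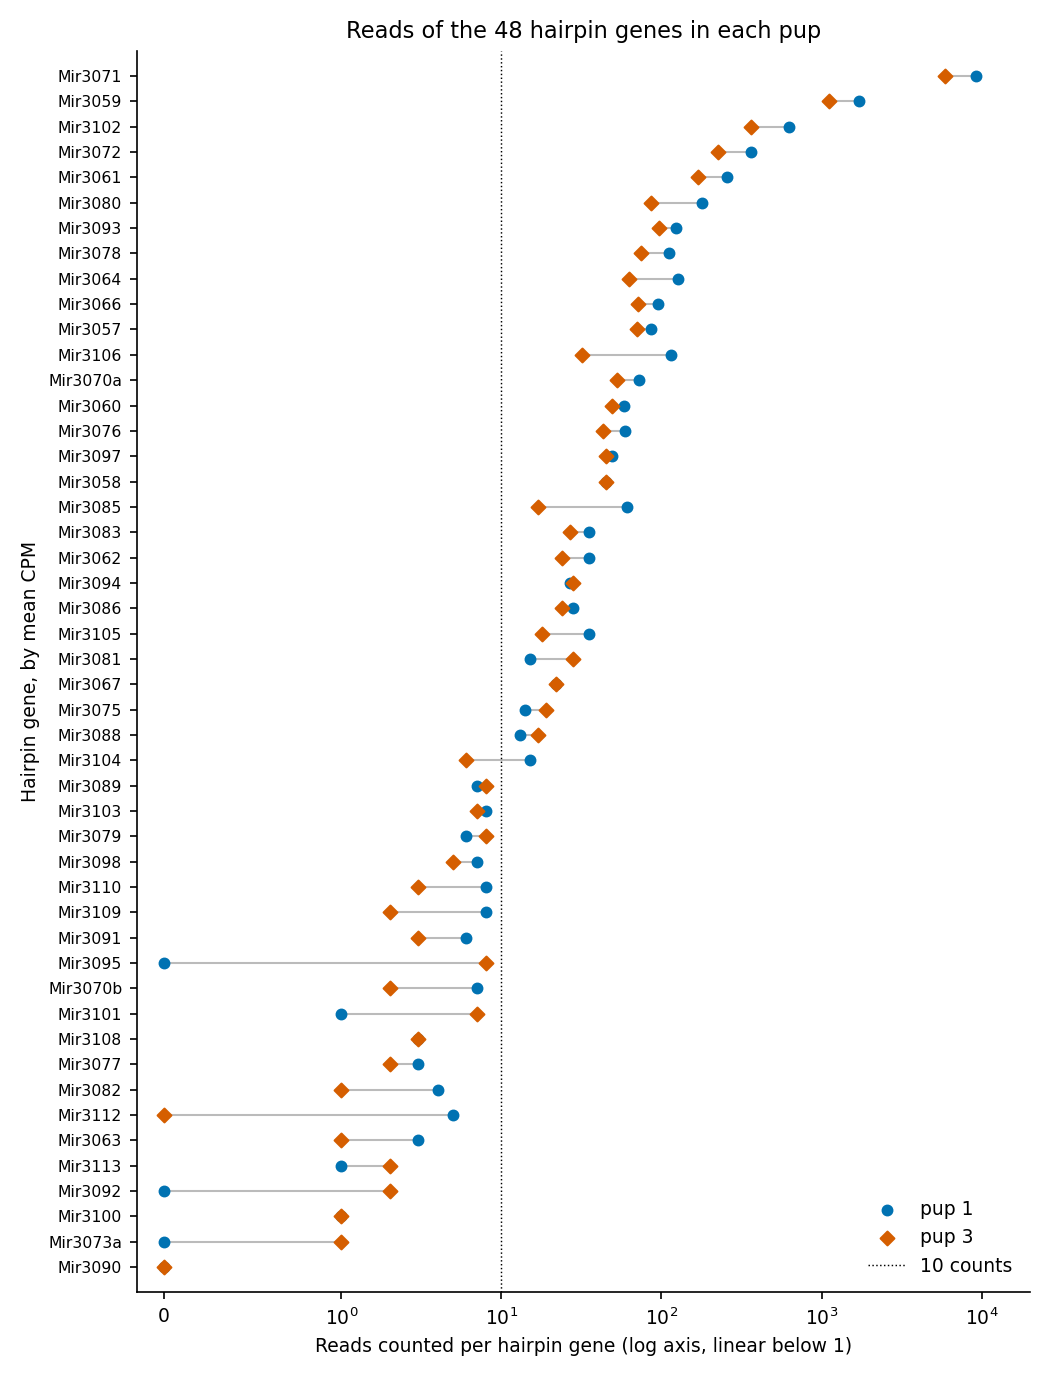
Reads counted for each of the 48 hairpin genes (rows, ordered by mean CPM) in pup 1 (circles) and pup 3 (diamonds), on an axis that is logarithmic above 1 and linear below. Mir3071 lies apart at 9260 and 5938 reads, 27 genes lie at or above the dotted line of 10 counts in both pups, and Mir3090 lies at 0 in both.

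A single row, named Mir3071 in M21, supplied most of these reads. It had 9260 reads in pup 1 and 5938 in pup 3, or 899 ± 178 CPM (SD, n = 2), which was 67.6% and 67.3% of all reads of the members. Its level ranked 108th among the 1973 genes. In GENCODE M21 its hairpin lies at chr12:109595318-109595397 (GRCm38) on the minus strand, inside the coding sequence of Rtl1, a retrotransposon-derived gene expressed from the paternal allele in the imprinted Dlk1-Dio3 region. On the plus strand of the same place that annotation has Mir136, at chr12:109595327-109595388, and the tables used here hold no row for it.

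The name Mir3071 on this row is uncertain for this reason. The arms of the hairpins mirror each other, with a gapless complementary stretch of 20 bases between miR-136-5p and miR-3071-3p and of 19 between miR-136-3p and miR-3071-5p. All reads of the row were counted as sense to the gene and 0 as opposite. Release M4 of the annotation, which the authors used, was not used here, so the strand it gives the gene is unknown. The identifier stands at version 1 in the tables and at version 2 in M21, a change that none of the other 47 members had. Its number is also close to that of the neighbouring Mir434 and well below those of all other members. Whether the reads came from Mir3071 or from Mir136 cannot be told apart here, and totals are therefore also given without this row. Without it the members took 0.0434% ± 0.00815 of assigned reads (SD, n = 2), 4442 reads in pup 1 and 2889 in pup 3.

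Mir3059 was the second most abundant member. It had 1705 reads in pup 1 and 1106 in pup 3, or 166 ± 31.6 CPM (SD, n = 2), which was 38.4% and 38.3% of the members' reads without Mir3071. It lies at chr10:101772692-101772772 in an intron of Mgat4c, which encodes a glycosyltransferase of the N-glycan branching family.

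Mir3102 followed with 622 and 362 reads, 58.0 ± 15.3 CPM. Its hairpin at chr7:100882306-100882409 spans a whole intron of Arhgef17, a guanine nucleotide exchange factor gene, to within 3 bases at each end, the position of a mirtron. In another Arhgef17 transcript of the annotation that intron is retained, so the same bases are also exonic. Mir702, which shares a seed with miR-3102-5p, had 798 and 550 reads, more than Mir3102 in both pups.

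Mir3072 had 362 and 227 reads, 34.8 ± 7.42 CPM, and lies in Mirg, the noncoding host of many hairpins of the Dlk1-Dio3 region. Mir3061 had 256 and 170 reads, 25.2 ± 4.38 CPM, and lies wholly in an untranslated region of Ppp2ca, the catalytic subunit of protein phosphatase 2A. Both were read more in pup 1 than in pup 3, as were the 3 members above them. The 5 most abundant members took 89.1% of the members' reads in pup 1 and 88.4% in pup 3.

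The imprinted Dlk1-Dio3 region holds 4 members, of which Mir3070a, Mir3071 and Mir3072 were detected. Mir3070a had 72 and 53 reads (7.43 ± 0.753 CPM), while its near copy Mir3070b had 7 and 2. Since the hairpins share stretches of 20 or more bases, and reads that map to several places are in no gene's count, both counts are uncertain. Mir434, a hairpin of the same region 719 bases from Mir3071, had 69001 and 26022 reads.

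A pair of members lies next to well-known neural hairpins. Mir3093 lies 341 bases from Mir9-1, on the same strand, in an intron of the noncoding gene Gm3764, and had 124 and 96 reads (13.1 ± 0.862 CPM). Mir3078 lies 444 bases from Mir124a-1, on the same strand, in an exon of the noncoding gene Mir124a-1hg, and had 112 and 75 reads (11.1 ± 1.86 CPM). miR-9 acts in neural progenitors and miR-124 in neurons, and each is made from several near-identical hairpins. Neither Mir3093 nor Mir3078 shares a stretch of 20 bases with another annotated hairpin.

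The neighbours themselves had the following counts. Mir124a-1 had 45 and 113 reads, and shares such a stretch with 2 other hairpins, so its count can miss reads that map to several places. The tables have no row for Mir9-1. At its position they have Gm25641, annotated on the opposite strand, whose 790 and 782 reads all lay opposite to it, on the strand where M21 has Mir9-1. In pup 3 Mir124a-1 was higher and Mir3078 was not called, at log2 ratios of 1.75 and -0.14, as detailed for the comparison of the pups below.

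Introns of protein-coding genes hold several detected members, of which 4 are given here and others in the paragraphs before and after. Mir3080, in an intron of the transcriptional coregulator Tcf20, had 179 and 86 reads. Mir3106, in an intron of Csmd1, had 114 and 32. Mir3105, in an intron of the postsynaptic scaffold gene Shank2, had 35 and 18, and Mir3081, in an intron of Boc, a Sonic hedgehog co-receptor, had 15 and 28. Mir3081 is the only one of these 4 with more reads in pup 3.

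A further 7 detected members lie in other protein-coding genes. Mir3064 had 126 and 63 reads and lies at a splice site of Ddx5, an RNA helicase that also takes part in microRNA processing. Mir3066 in Nol10 had 95 and 71 reads, Mir3057 in Apba3 had 86 and 70, and Mir3060 in Rnf215 had 58 and 49. Mir3076 at a splice site of the transketolase gene Tkt had 59 and 43, Mir3097 at a splice site of Rgs12 had 49 and 45, and Mir3058 in Nudt4 had 45 and 45. None of these 7 but Mir3064 was called different between the pups in the comparison below.

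The remaining detected members had 13 to 61 reads in a pup. Mir3083 had 35 and 27 reads. Mir3085, with no host gene in the annotation, had 61 and 17 reads, Mir3062 in the purine synthesis gene Pfas had 35 and 24, and Mir3086 in Hspa12a had 28 and 24. Mir3094 at a splice site of Nfx1 had 27 and 28, Mir3067 in Smoc1 had 22 and 22, Mir3075 in Zmiz1 had 14 and 19, and Mir3088 in Ak8 had 13 and 17.

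Among members under the detection minimum, Mir3104, at a splice site of the neuronal kinase gene Brsk2, had 15 and 6 reads. Mir3089 had 7 and 8, Mir3103 had 8 and 7, Mir3079 had 6 and 8, Mir3098 had 7 and 5, Mir3110 had 8 and 3, Mir3109 had 8 and 2, and Mir3091 had 6 and 3. Mir3101 had 1 and 7 reads and Mir3108 had 3 and 3. Reads in a single pup were found for 4 members, with 8 for Mir3095, 2 for Mir3092 and 1 for Mir3073a in pup 3, and 5 for Mir3112 in pup 1. At most 4 reads in a pup were found for Mir3077, Mir3082, Mir3063, Mir3113 and Mir3100. For Mir3090 the count of 0 allows a level of up to 0.332 CPM in pup 1 and 0.391 CPM in pup 3 (3 counts per library). Around the detection minimum, Mir3088 with 13 and 17 reads lies just inside and Mir3104 just outside.

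Compared with other numbered hairpins, the members were seldom at 0, and compared with Mir1 to Mir999 they were seldom abundant. Only 1 of 48 members (2.08%) was at 0 in both pups, against 24.1% of 465 hairpins from Mir1 to Mir999, 42.7% of 82 from Mir1000 to Mir3056 and 41.3% of 445 from Mir3114 upward. The share detected was 56.3% for the members, and 64.5%, 29.3% and 13.3% for those sets, beside 21.9% of all 1973 genes. The median level of the detected genes was 6.4 CPM for the members and 274, 13.4 and 3.05 CPM for the same sets. Over all genes of a set, detected or not, the median was 2.65 CPM for the members and 36.4, 0.0879 and 0.111 CPM for the same sets. No member reached 1000 CPM, and neither did any of the 445 hairpins from Mir3114 upward. That level was reached by 88 of the 465 from Mir1 to Mir999 and 2 of the 82 from Mir1000 to Mir3056. These are counts over named sets and carry no test. A stretch of 20 or more bases was shared with another hairpin by 10.4% of members and by 37.2%, 9.76% and 6.97% of the same sets. Reads that map to several places are in no gene's count, which can raise the share at 0 and lower the share detected. How far this accounts for the differences was not tested.

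**Figure D2:**
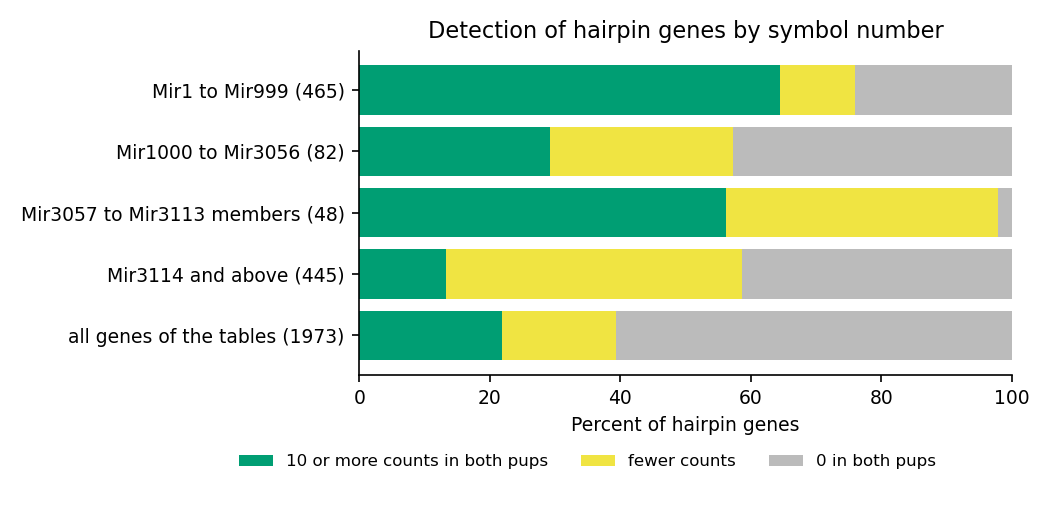
Share of hairpin genes (horizontal axis, percent) with 10 or more counts in both pups, with fewer counts, and with 0 counts in both pups, for sets of genes by symbol number (rows, with the number of genes). The Mir3057 to Mir3113 members have the smallest share at 0 of the sets shown, 2.08%, and a detected share of 56.3%. Hairpins with near copies, whose reads can go uncounted, are more frequent in Mir1 to Mir999 than among the members. They are slightly less frequent from Mir1000 to Mir3056 and from Mir3114 upward.

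**Figure D3:**
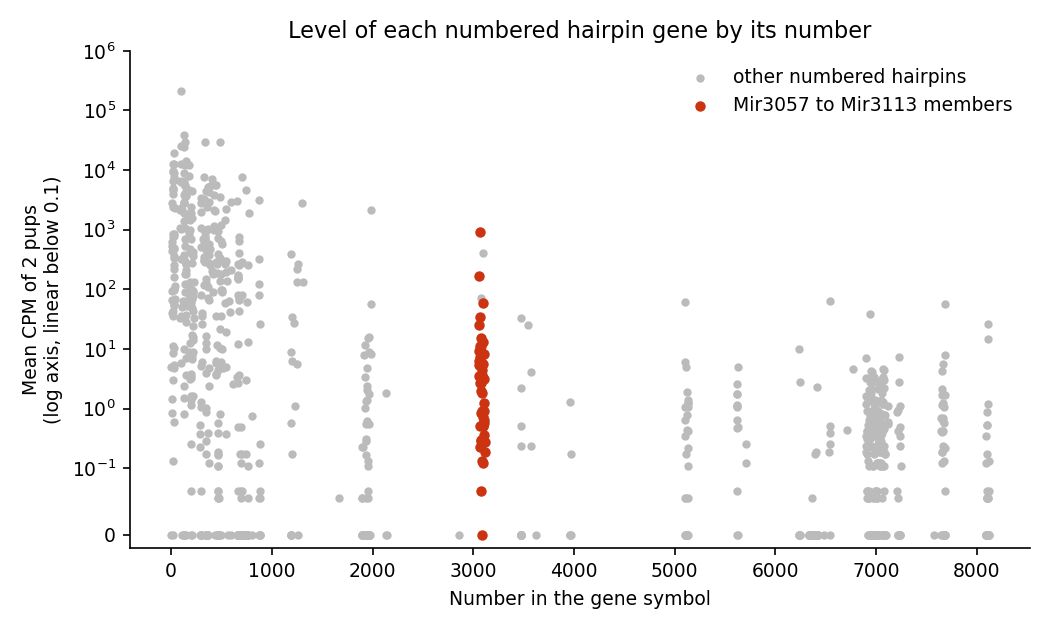
Mean CPM of the pups for each numbered hairpin gene (vertical axis, logarithmic above 0.1 and linear below) against the number in its symbol (horizontal axis). The 48 members (red) run from 0 to 899 CPM, while levels of 1000 CPM or more lie at lower numbers. The grey points at the same numbers are the genes that the rule leaves out.

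Near copies were few, as in the other late-numbered sets. A stretch of 20 or more bases in common with an annotated hairpin elsewhere was found for 5 members (10.4%), namely Mir3070a, Mir3070b, Mir3098, Mir3110 and Mir3113, against 37.2% of the hairpins from Mir1 to Mir999, 9.76% from Mir1000 to Mir3056, 6.97% from Mir3114 upward and 46.8% of all genes. On the same strand as a host gene lay 40 members (83.3%), against 55.4% of 1846 other matched hairpins. The latter include many hairpins without a Mir number, and host positions were not counted for the numbered sets. The median hairpin length was 84 bases in the members, and 84, 85 and 72 bases in those 3 sets. The median GC content of the hairpins was 54.6% in the members, close to the 53% and 54.7% of Mir1000 to Mir3056 and of Mir3114 upward, and 46.7% in Mir1 to Mir999.

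A splice site of a same-strand host lay within 3 bases of a hairpin end in 10 members (20.8%), against 10.7% of the same 1846 other hairpins. These 10 are Mir3102, which spans its intron, and Mir3064, Mir3076, Mir3077, Mir3082, Mir3094, Mir3097, Mir3100, Mir3103 and Mir3104, which touch 1 end. Of the 10, 5 were detected, with a median level of 2.27 CPM over all 10. Of 19 members that lie within an intron away from its ends, 13 were detected, with a median of 2.65 CPM. Of 7 members inside an exon, 4 were detected, namely Mir3071, Mir3061, Mir3078 and Mir3057. Among the other hairpins, 38 of 197 near a splice site and 156 of 544 within an intron were detected. Inside an exon it was 50 of 160. Some of the hairpins near a splice site also lie in exons of other transcripts of the same gene, such as Mir3064 in an untranslated region of a Ddx5 transcript.

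Between the pups, the members kept nearly the same order of levels. Over the 48 members the levels in the pups, as log2(CPM + 1), had a Pearson's r of 0.977 and a Spearman's rank correlation of 0.925, and for the 27 detected members the values were 0.971 and 0.884. These values run over genes within 2 libraries, which may share their preparation, and genes are not independent replicates. Of the 28 members that reached 20 counts in total, 20 had a lower level in pup 3 when scaled by total reads. The number was 15 with the TMM factors used for the main comparison and 14 with DESeq2 size factors. Over all 460 genes with that total, the median log2 ratio of pup 3 over pup 1 was -0.22, -0.02 and -0.008 in the same order.

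**Figure D4:**
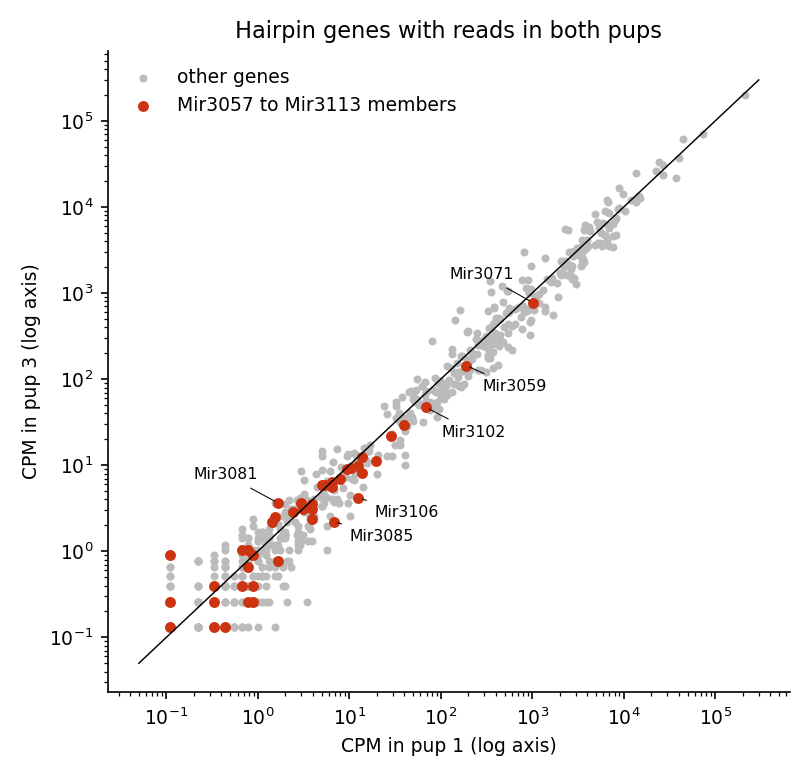
CPM in pup 1 (horizontal, log axis) against CPM in pup 3 (vertical, log axis) for genes with reads in both pups, with the members in red and a line of equal CPM. The members lie along the line over their range of levels. Below it lie Mir3106, at 12.6 CPM in pup 1 and 4.17 in pup 3, and Mir3085, at 6.75 and 2.21.

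The difference between pups was tested per gene with a two-sided exact binomial test on the counts, scaled by edgeR's TMM factors, with Benjamini-Hochberg adjustment over the 460 genes that reached 20 counts in total. It sets these libraries against counting error and says nothing of conditions. Of 28 members tested, 8 were called at an adjusted p under 0.05, against 63% of the 460 genes. They were 1 higher in pup 3, against 30.2% of all genes, and 7 lower, against 32.8%. Calls depend on depth. Among genes with a total under 200 counts, 4 of 21 members were called, against 22% of all such genes, and with 200 counts or more 4 of 7, against 84.7%. The first of these shares is near its background.

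The members' ratios centred near 0. The median log2 ratio of pup 3 over pup 1 was -0.01 over the 28 members and -0.02 over the 460 genes, and the median size of the ratio, without its sign, was 0.28 and 0.41. Scaling by total reads lowers both medians by the same amount, to -0.21 and -0.22, and under it 9 members were lower and 1 higher. Over all genes, 139 were higher and 151 lower with TMM factors, and 98 were higher and 206 lower with total reads.

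The members that were lower in pup 3 by the widest margin were Mir3106 and Mir3085. Mir3106 fell from 114 reads to 32, a log2 ratio of -1.38 (95% exact interval -2.01 to -0.82; exact binomial adjusted p = 5.01e-07). Mir3085 fell from 61 to 17 reads, with -1.38 (-2.28 to -0.61; exact binomial adjusted p = 0.000401). Its seed partner Mir3064 fell from 126 to 63 reads, with -0.56 (-1.02 to -0.12; exact binomial adjusted p = 0.0204). Mir3080 fell from 179 to 86 reads, with -0.62 (-1.01 to -0.24; exact binomial adjusted p = 0.0018). Both hairpins that carry the seed printed for miR-3064-5p and miR-3085-3p were called lower in pup 3, as were 32.8% of the 460 genes. The difference between their ratios was not tested. In the other pair of members that share seeds, Mir3070a was not called and Mir3070b had too few reads for the test.

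The abundant members differed by less, and their calls rest on higher counts. Mir3071 had a log2 ratio of -0.21 (95% exact interval -0.25 to -0.16; exact binomial adjusted p = 1.87e-17), Mir3059 of -0.19 (-0.30 to -0.08; exact binomial adjusted p = 0.0013) and Mir3102 of -0.35 (-0.54 to -0.16; exact binomial adjusted p = 0.000521). In the same region as Mir3071, Mir434 was lower at -0.97. Mir3072 at -0.24 (-0.48 to 0.01) and Mir3061 at -0.15 (-0.44 to 0.13) were not called, and both were called lower when libraries were scaled by total reads.

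Mir3081, the hairpin in Boc, was the member called higher in pup 3. It rose from 15 to 28 reads, a log2 ratio of 1.31 (95% exact interval 0.38 to 2.35; exact binomial adjusted p = 0.0057), and its 43 reads fall under a minimum of 50. The other 20 members tested were not called, with log2 ratios from -0.82 for Mir3104 to 0.86 for Mir3075. At their depth the intervals were wide, from -2.54 to 0.56 for Mir3104 and from -0.20 to 1.98 for Mir3075, so a doubling was not always detectable. Beside the neural hairpins, Mir3093 had 0.07 (-0.33 to 0.46) and Mir3078 had -0.14 (-0.59 to 0.29). The neighbouring rows were called higher, with 0.42 for Gm25641 and 1.75 for Mir124a-1, whose counts can miss reads that map to several places. The difference between neighbours was not tested.

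**Figure D5:**
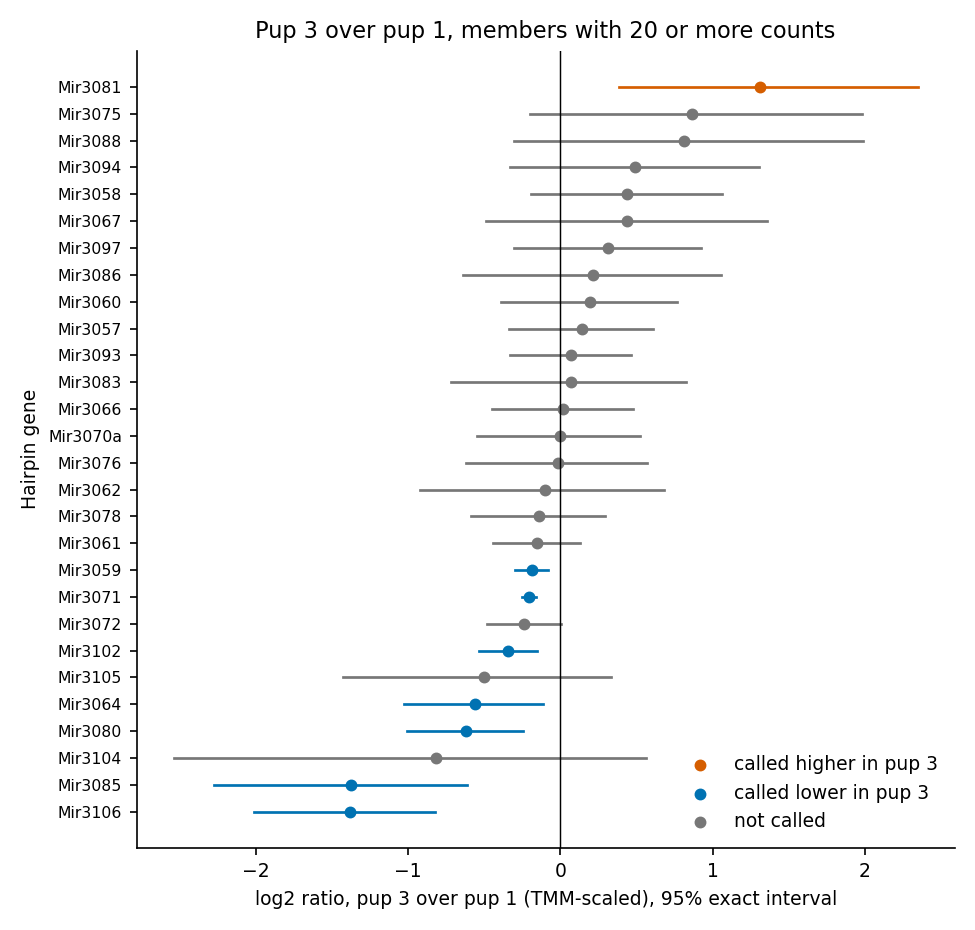
log2 ratio of pup 3 over pup 1 after TMM scaling (horizontal axis) with 95% exact binomial intervals for the 28 members that reached 20 counts in total (rows, ordered by ratio). The 7 genes called lower in pup 3 (blue) run from Mir3106 at -1.38 to Mir3059 at -0.19, and Mir3081 (orange) is the 1 called higher.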

How the data were processed

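Small RNA reads from 2 forebrains were counted per hairpin gene by the authors (assembly mm10, annotation M4), per the notes deposited with the tables. Which aligner and counter they ran is not given in the sources used here. Deposited counts are whole numbers in 3 unheaded columns. In all 1973 genes the first equals the sum of the others, read here as sense and opposite strand, and it was used throughout. Reads with several map positions were 43.0% of all reads in pup 1 and 43.5% in pup 3, unmapped reads 14.9% and 14.4%, and reads in no gene 1.85% and 1.26%. These tallies stayed out of library sizes, so counts of near-identical hairpins can be too low. Assigned reads were 40.2% and 40.8% of all reads.

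GENCODE M21 (GRCm38, which is mm10) gave names, positions and hosts for 1894 of 1973 identifiers, matched without their version. Partner hairpins are those overlapping a member or within 1000 bases. Host classes used all transcripts of the host. Shared stretches were searched among annotated hairpins, not in the genome.

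Log2 ratios were computed with 0.5 added to counts and TMM factors of 1.07 and 0.933 (edgeR 4.0.16). With 1 group, no quasi-likelihood contrast could be fitted. The exact binomial test was checked on simulated data. p-values measure counting error between 2 libraries, which may be partly technical. No molecular identifiers are named. Members, sets and lists were chosen with earlier results of these data known. By rule the text names every member, and other genes only as partners, hosts, seed sharers or markers. Partners with 0 reads in both pups are not described, and the host position of Mir3083 is not reported here. Alternatives were total counts, DESeq2 1.42.0 size factors, other count minimums, sense reads only and each pup alone. Leaving out Mir3071, a minimum of 1 CPM, and the calls by depth were added after the data were seen. Tests used scipy 1.17.1 in Python 3.11.15, and scaling factors came from R 4.3.3.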

Additional observations from a re-analysis of the deposited data

Results flagged for a closer look

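Reads on the strand opposite to a member stood above the 3 counts that a count of 0 allows for Mir3083 and Mir3086. Mir3083 had 7 such reads beside 28 sense reads in pup 1, and 6 beside 21 in pup 3. Mir3086, in an intron of Hspa12a, had 6 beside 18 in pup 3, and 2 beside 26 in pup 1. Mir3080 had 1 opposite read in pup 3, and the other 45 members had none. No other microRNA gene of M21 overlaps Mir3083 or Mir3086. The source of these reads was not tested.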

How the results depend on the processing

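The share of assigned reads taken by the members was 0.115% to 0.152% when either pup was left out, 0.136% over sense reads only and 0.132% without members that share a stretch, but 0.0434% without Mir3071, since that row holds most of the reads. The number detected was 22 with a minimum of 20 counts, 32 with 5, and 26 to 28 under the other settings run. Calls lower in pup 3 stayed between 6 and 9. The 6 were of 27 members without Mir3071, against 151 of 460 genes. The 9 were of 28 members with total reads, against 206 of 460 genes. With a total of 50 or more, 0 of 23 members were higher, against 135 of 390 genes, and Mir3081 is no longer tested. With no filter beyond 1 count, 3 of 47 members were higher, against 139 of 775 genes. There Mir3095 (0 and 8 reads) and Mir3101 (1 and 7) joined Mir3081. Signs turned for members that were not called under any scaling. With total reads the log2 ratio was -0.0601 for Mir3057, -0.00601 for Mir3060, -0.18 for Mir3066, -0.13 for Mir3083 and -0.13 for Mir3093. With DESeq2 size factors it was 0.00789 for Mir3070a, and over sense reads -0.00109 for Mir3066 and -0.10 for Mir3086. Leaving out a pup gives no test between pups. No paired analysis was possible because there is 1 group. At under 200 total counts, intervals often span a doubling.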
